A study of Allium mongolicum with 12 samples.

Results

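In roots of Allium mongolicum, 121 assembled transcripts were lower at 24, 48 and 72 h of saline-alkali stress than before it. They were taken from 98328 transcripts by their own levels in CPM, the count scaled to a common library total. A mean of at least 5 CPM over the 12 libraries was required and met by 20612 transcripts. In 718 of these, all 9 libraries of stressed roots lay below the lowest library of unstressed roots. In 121 of the 718, the mean at each of the 3 stress times was also at most 50% of the unstressed mean, and these are the members described here. The rule had a limit of 200 members, which was not reached. Because it used the levels against unstressed roots, those levels are given as a description, and no test of them is read as a result.

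Unstressed control roots at 0 h (CK) were set beside roots kept in a saline-alkali solution for 24 h (group T24), for 48 h (group T48) or for 72 h (group T72), with 3 libraries in each group. The solution held 9 parts each of Na2SO4 and NaHCO3 to 1 part each of NaCl and Na2CO3, at a total of 150 mmol/L. All groups share the same raising, with 45 days of growth at 25 °C and then 7 days in diluted Hoagland solution, and each drew on 20 seedlings whose division among the libraries is not given. The labels name no strain of the plant. There are no libraries of unstressed roots at the later times, so stress cannot be told apart from elapsed time or harvest. The labels do not say whether libraries of a group came from separate plants, so the p-values refer to the spread among libraries, and part of that may be technical.

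Allium mongolicum is a wild onion of arid steppe and desert margins. Saline-alkali soils burden roots with sodium, with a lower water potential and, through carbonates, with high pH, which makes iron, phosphate and other nutrients less soluble. Roots in such soils generally slow their growth, and genes of growth and of nutrient uptake are among those known to be expressed less in salt-stressed plants. The study set out to relate salt-alkali tolerance to phenylpropanoid metabolism, the route from phenylalanine to lignin and flavonoids. The file pairs no transcript with a gene name, so no member is assigned here to this or any other pathway, and no marker gene could be read as a check that the tissue was root. Transcripts are therefore described by level, pattern and assembly ID.

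Library totals ran from 23099287 to 26388120 estimated counts, so that 3 counts amounted to 0.114 to 0.13 CPM. Such a floor covers counting error only. Libraries differed in spread: the biological coefficient of variation (the spread beyond counting noise) over the transcripts at 5 CPM or more was 36.5%, 8.25%, 39.3% and 27.6% at 0, 24, 48 and 72 h. T48 replicate 2 stood apart. Its correlation with the other 48 h libraries was 0.864 in log2 CPM across transcripts, below its correlations of 0.889 to 0.921 with the CK libraries. Whether the label of T48 replicate 2 is right cannot be told from these correlations, and a cause was not tested. T48 replicate 2 was kept at 48 h as labelled, and results that rest on it are given with and without it.

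The summed level of the members had to be lower in every stressed library than in every CK library, because the rule required this of each member. The 121 members together made up 13892, 15107 and 15430 CPM in CK replicates 1, 2 and 3. At 24 h the sums were 5431, 5272 and 5332 CPM, and at 48 h they were 4133, 8414 and 3706 CPM. At 72 h they were 3639, 4305 and 3111 CPM. T48 replicate 2 was the highest of the stressed libraries, and the 24 h libraries nearly coincided. Mean sums were 14810 ± 811 CPM in unstressed roots, 5345 ± 80.0 CPM at 24 h, 5418 ± 2603 CPM at 48 h and 3685 ± 598 CPM at 72 h (SD, n = 3 each). The 3 most abundant members held 20.8% of the CK sum, and without them the means were 11723, 4102, 4262 and 2855 CPM at 0, 24, 48 and 72 h. In bulk RNA, fewer cells of a type and less RNA per cell cannot be told apart.

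**Figure D1:**
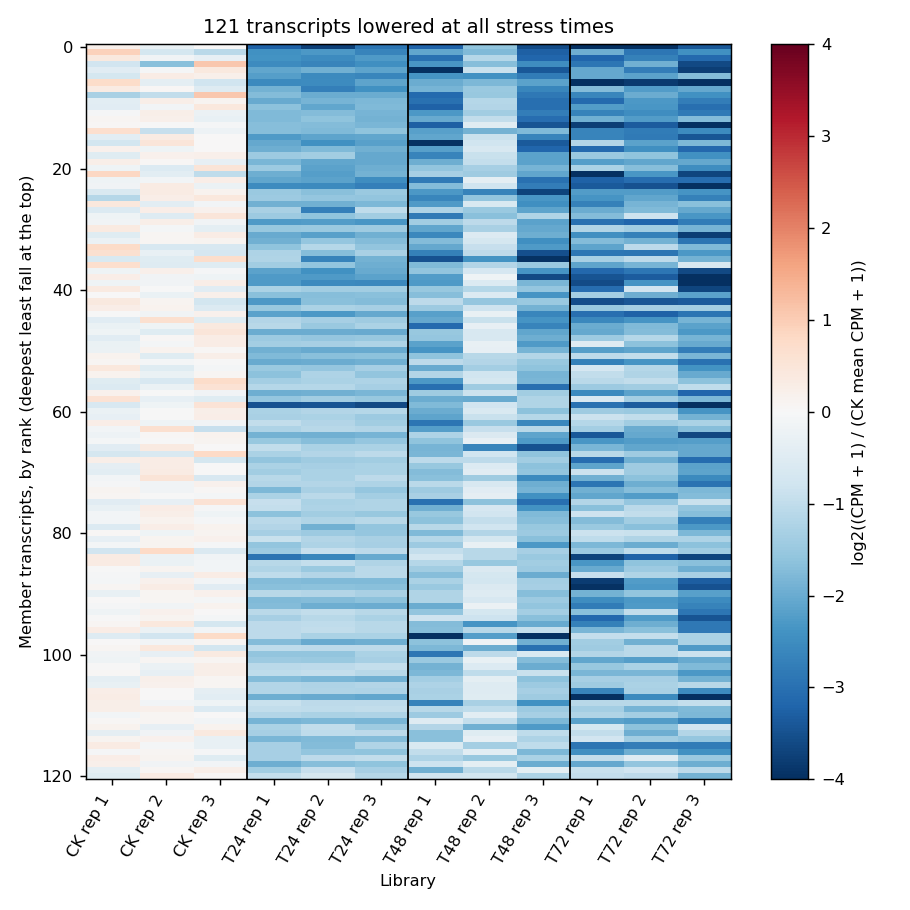
Heatmap of the 121 members (rows, ordered by the rule with the deepest least fall at the top) in the 12 libraries (columns), coloured by log2((CPM + 1)/(CK mean CPM + 1)). Stressed libraries are blue throughout because the rule required it, and the column of T48 replicate 2 is the palest of the 9.

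Single members spanned a wide range of levels. Their CK means ran from 9.32 to 1127 CPM with a median of 59.3 CPM. The median member stood at 32.9% of its CK mean at 24 h, 37.7% at 48 h and 24.5% at 72 h. At 72 h, 65 members were at 25% of CK or less and 12 at 10% or less. At 24 h these counts were 32 and 2, and at 48 h they were 25 and 2. Only 9 of the 121 members were at 25% or less at all 3 times. Depth of the fall differed little with abundance at 72 h, where members with a mean of 5 to 20, 20 to 100 and 100 or more CPM had medians of 24.0%, 24.3% and 25.5% of CK. At 24 h the same classes had medians of 29.0%, 34.7% and 40.8% of CK.

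The first member by the rule, TRINITY_DN28162_c1_g3_i3_4, had 39.8, 27.8 and 34.8 CPM in CK and 2.72, 1.63 and 3.63 CPM at 24 h. It had 2.81, 10.5 and 1.93 CPM at 48 h and 0.931, 1.09 and 2.32 CPM at 72 h. T48 replicate 2 was its highest stressed library, at more than the other 48 h libraries together, and stayed well below CK. Its means were 34.1 ± 6.05 CPM in CK, 2.66 ± 1.00 CPM at 24 h, 5.09 ± 4.73 CPM at 48 h and 1.45 ± 0.762 CPM at 72 h (SD, n = 3). These means were 12.8-fold, 6.71-fold and 23.6-fold lower than CK at 24, 48 and 72 h.

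The most abundant member in CK, TRINITY_DN40082_c0_g1_i9_3, had 873, 1382 and 1126 CPM in CK and 466, 451 and 464 CPM at 24 h. It had 392, 776 and 365 CPM at 48 h and 258, 421 and 254 CPM at 72 h. T48 replicate 2 came close to the lowest CK library, and the other stressed libraries lay far below CK. Its means of 460.2 ± 8.19, 511 ± 229.8 and 311 ± 95.3 CPM at 24, 48 and 72 h were 40.8%, 45.3% and 27.6% of the CK mean of 1127 ± 255 CPM (SD, n = 3). Between stress times neither of these 2 members was called in edgeR's quasi-likelihood test, which does not show that they were steady. Benjamini-Hochberg adjusted p-values were 0.489, 0.156 and 0.696 for 48 h over 24 h, 72 h over 48 h and 72 h over 24 h in the first, and 0.839, 0.271 and 0.585 in the second.

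The middle and the end of the ranking show how shallow the fall could be. The member at rank 61 had 91.5, 109 and 128 CPM in CK, 44.9, 48.5 and 49.3 CPM at 24 h, 27.1, 71.6 and 34.1 CPM at 48 h and 40.1, 38.6 and 20.5 CPM at 72 h. The last member, at rank 121, had 8.50, 15.7 and 13.0 CPM in CK and 5.86, 7.25 and 5.10 CPM at 24 h. It had 6.67, 7.09 and 4.74 CPM at 48 h and 5.86, 5.48 and 2.65 CPM at 72 h. Here the highest stressed library and the lowest CK library differed by little more than 1 CPM. Of the members, the 3 nearest to the 50% limit had a highest stressed mean of 49.96%, 49.88% and 49.87% of CK, and the 3 transcripts just outside had 50.05%, 50.06% and 50.3%. Among the 597 transcripts with groups apart that missed the limit, 122 missed it at 1 time only, and 84 of these at 48 h.

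The gap between groups was narrow in most members. The lowest CK library exceeded the highest stressed library 1.28-fold in the median member, from 1.00-fold to 2.64-fold, and at least 2-fold in 5 members. T48 replicate 2 was the highest of the 9 stressed libraries in 80 of the 121 members. Leaving it out widened the median gap to 1.75-fold, and 41 members then had a gap of at least 2-fold. The lowest CK library was replicate 1 in 48 members, replicate 2 in 33 and replicate 3 in 40, so no single control set the floor.

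T48 replicate 2 held intermediate levels of the members, within limits that the rule set. The rule kept it below every CK library and the 48 h mean at 50% of CK or less. In the 390 transcripts chosen without it (described below), it was below every CK library in 39.0%. The median member was at 52.8% of its CK mean in T48 replicate 2, against 27.1% and 24.5% in T48 replicates 1 and 3. The medians were 32.8%, 32.0% and 32.6% in the 24 h libraries and 23.2%, 25.1% and 19.2% in the 72 h libraries. Among the 48 h and 72 h libraries it was the only one with a median above those of the 24 h libraries. It was the highest of the 48 h libraries in 98 members (81.0%), against 59.5% of the 597 transcripts with groups apart that missed the 50% limit and 32.8% of all transcripts at 5 CPM or more. It exceeded 50% of the CK mean in 67 members. Its scaling factor (TMM, a trimmed mean of ratios between libraries) was 0.946, near the 0.934 to 0.941 of CK, whereas the other stressed libraries had 1.00 to 1.05.

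**Figure D2:**
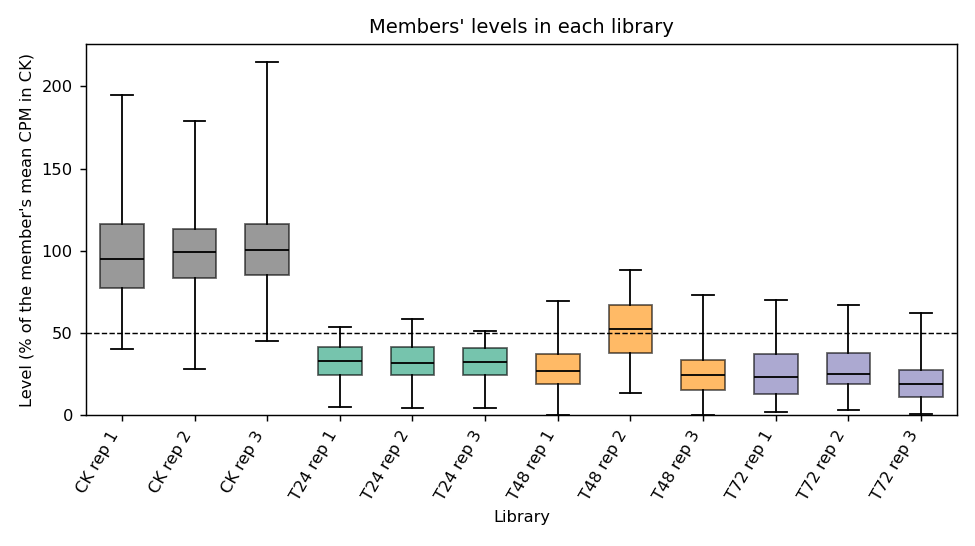
Levels of the 121 members in each library as a percentage of the member's mean CPM in CK. Boxes span the quartiles with the median as a line, whiskers reach the lowest and highest member, and the dashed line marks 50%. T48 replicate 2 has a median of 52.8%, and the other stressed libraries have medians between 19.2% and 32.8%.

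Since the rule used all 12 libraries, the members were also chosen from 11 libraries and the left-out library was then read. This was added after the data had been seen. The left-out library shares its group with libraries that took part in the choice, and all choices share CK libraries. Without a 24 h library the rule gave 122, 124 and 123 transcripts, and the left-out library lay below every CK library in 122, 123 and 123 of them. Transcripts at 5 CPM or more did so in 24.1% to 25.9% of cases. Without T72 replicate 1, 2 or 3 it gave 137, 127 and 117 transcripts, and the left-out library was below CK in 127 (92.7%), 123 (96.9%) and 116 (99.1%), where 26.7% to 27.8% of transcripts at 5 CPM or more were.

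At 48 h the left-out libraries differed. Without T48 replicate 1 or 3 the rule gave 111 and 100 transcripts, and the left-out library was below CK in 107 (96.4%) and 93 (93.0%). Without T48 replicate 2 it gave 390 transcripts, 120 of the 121 members among them. In only 152 of the 390 (39.0%) was T48 replicate 2 below every CK library, where 28.6% of transcripts at 5 CPM or more were. In 54 of the 390 (13.8%) it was at 50% of the CK mean or less, against 5.15% of transcripts at 5 CPM or more.

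The controls also limited the list. Without CK replicate 1, 2 or 3 the rule gave 229, 165 and 133 transcripts, and the left-out control lay above every stressed library in 127 (55.5%), 111 (67.3%) and 101 (75.9%). The same held for 14.9%, 11.3% and 16.2% of transcripts at 5 CPM or more.

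**Figure D3:**
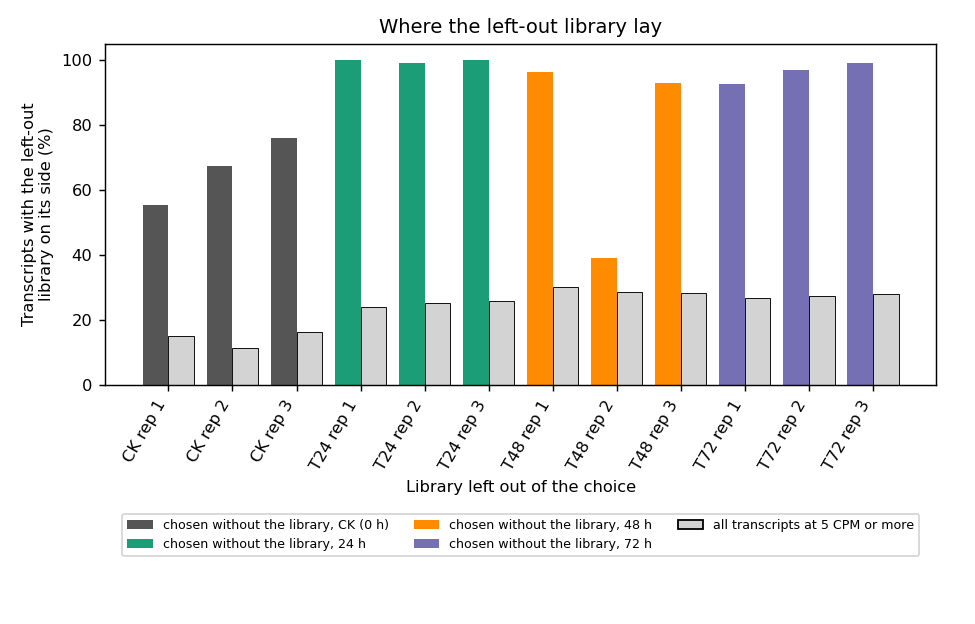
Percentage of transcripts in which a library left out of the choice lay on its side, that is below every CK library for a stressed library and above every stressed library for a CK library. Coloured bars show transcripts chosen from the other 11 libraries and grey bars all transcripts at 5 CPM or more, with 39.0% for T48 replicate 2 and 92.7% or more for the other stressed libraries.

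The rule did not compare the stress times with each other, but it capped the members' levels in all 9 stressed libraries. The members' differences between stress times are thus not free of it, and transcripts at 5 CPM or more had no such cap. These differences were tested in edgeR's quasi-likelihood model of all 12 libraries. P-values were adjusted over the 76273 transcripts tested (Benjamini-Hochberg, called below 0.05). All 121 members passed the low-count filter. An F test over the 3 stress times called 16 members (13.2%), where 4.85% of all tested transcripts and 7.97% of those at 5 CPM or more were called. Without T48 replicate 2 the F test called 20 members, 8 of them among the 16 (3.9% of all tested transcripts were called). The count was 7 without T24 replicate 1, 2 or 3, 6 without T72 replicate 1 and 9 without T72 replicate 3. Shares of all transcripts called are not given here for these last fits, so the lower counts are not read as particular to the members. Most members thus had no called difference between stress times, which does not show that they were steady. In all, 17 members were called in at least 1 of the 3 pairwise comparisons and 104 in none. The like shares of all tested transcripts are not given here, so these 2 counts have no background and are a description only.

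Between 72 h and 24 h, members were mostly lower at the later time. The log2 change of 72 h over 24 h was below 0 in 93 of 121 members, with a median of -0.52, against a median of 0.02 over transcripts at 5 CPM or more, of which 47.5% were below 0. The members' share below 0 was 76.9%. Single members seldom passed the test: 4 were lower, 0 higher (3.31% called, where the background was 1.18% of all tested transcripts and 0.976% at 5 CPM or more, with 1.03% and 0.505% called lower). The 597 transcripts with groups apart but a smaller fall had a median of -0.10, and 67.5% of them were below 0. Of these, 7 (1.17%) were called, all lower. The median of the members was -0.53 without T48 replicate 2. The count of 4 was 1, 1 and 0 when T24 replicate 1, 2 or 3 was left out (0.826%, 0.826% and 0%). In these fits 0.180%, 0.170% and 0.189% of transcripts at 5 CPM or more were called. The count was 11 without T48 replicate 2 (9.09%, where 2.13% of transcripts at 5 CPM or more were called). It was 1, 10 and 2 without T72 replicate 1, 2 or 3 (0.826%, 8.26% and 1.65%, where 0.316%, 0.748% and 0.563% were). With only the 24 h and 72 h libraries in the fit, 26 members were called, all lower (21.5%, where 9.49% of transcripts at 5 CPM or more were called). With the near-identical 24 h libraries averaged to 1, 0 members were called, as were 0 of the other transcripts at 5 CPM or more; at an unadjusted p below 0.05 this fit had 15 members.

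The 4 members lower at 72 h than at 24 h were also lower at 72 h than at 48 h. Both comparisons use the same 72 h libraries, so the overlap is not a separate result, and its share over all transcripts is not given. The largest change was in the member at rank 7, which had 0.804, 1.89 and 0.515 CPM at 72 h, against 6.07, 6.23 and 8.67 CPM at 24 h. It had 9.52, 10.9 and 8.40 CPM at 48 h and 67.9, 30.6 and 22.8 CPM in CK. The 72 h libraries lay below all others, and the 48 h libraries, replicate 2 included, lay close together. The log2 change was -2.70 over 24 h (edgeR adjusted p = 0.0298) and -3.21 over 48 h (adjusted p = 0.0111). The call against 24 h was lost without T24 replicate 1, 2 or 3 or T72 replicate 1 or 3, with log2 changes of -2.80, -2.78, -2.51, -2.51 and -2.36. The call against 48 h was lost without T72 replicate 1 (-3.02).

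The member at rank 116 had the lowest adjusted p of the 121 for 72 h over 24 h. It had 0.868, 1.09 and 1.05 CPM at 72 h, against 4.64, 3.24 and 5.12 CPM at 24 h. At 48 h it had 8.26, 4.47 and 5.94 CPM and in CK 16.7, 12.3 and 10.5 CPM. Every 72 h library lay below every other library. The log2 change was -2.09 over 24 h (edgeR adjusted p = 0.00802) and -2.66 over 48 h (adjusted p = 0.0027). The call against 24 h was lost without T24 replicate 1 or 3 (-2.05 and -1.95).

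**Figure D4:**
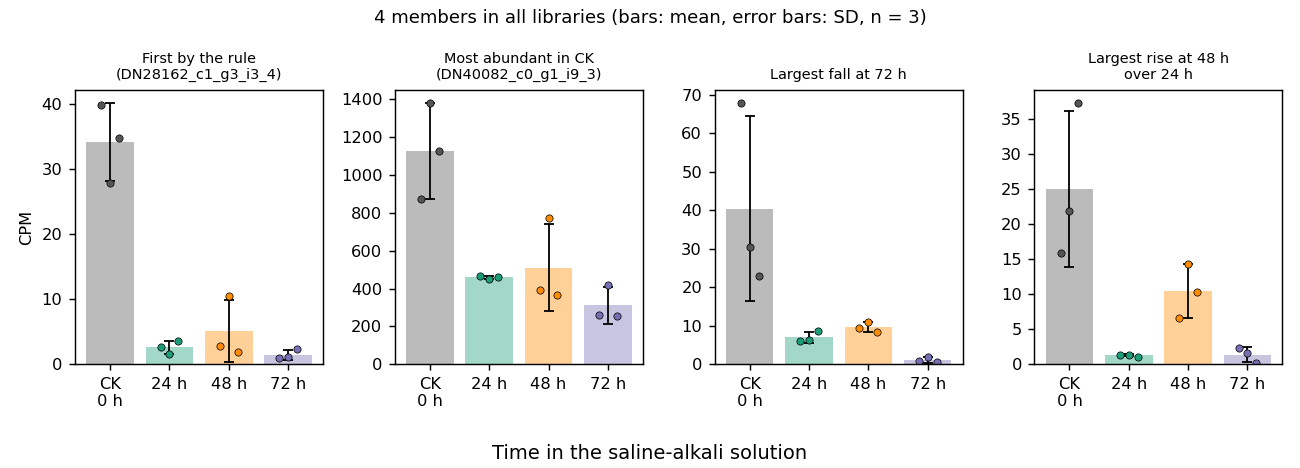
CPM of 4 members in all libraries at 0 h (CK), 24, 48 and 72 h, with bars at the mean, error bars of 1 SD and a point per library (n = 3). They are the first member by the rule, the most abundant in CK, the member with the largest called fall at 72 h (rank 7) and the one with the largest called rise at 48 h over 24 h (rank 60).

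Between 72 h and 48 h the median change and the direction of the calls turned on T48 replicate 2. The count of calls also varied with the 24 h libraries in the fit. With all libraries, 17 members were lower at 72 h and 0 higher (14.0% of members, where 2.35% of all tested transcripts and 7.06% of those at 5 CPM or more were called, with 1.31% and 3.95% called lower). The median log2 change was -0.57, against -0.01 over transcripts at 5 CPM or more, and 95 members (78.5%) were below 0. Of the 597 transcripts with groups apart but a smaller fall, 63.7% were below 0 and 49 (8.21%) were called, 45 of them lower. Without T48 replicate 2 the median was -0.06, 63 members were below 0, and 15 were called, of which 9 lower and 6 higher (12.4%, where 5.74% of transcripts at 5 CPM or more were called). Of those 15, 9 were among the 17. Leaving out any 1 of the T24 replicates gave 10, and the count was 13 without T48 replicate 1, 27 without T48 replicate 3, and 5, 20 and 8 without T72 replicate 1, 2 or 3. Averaging the 24 h libraries gave 4 calls and leaving them out 5. With only the 48 h and 72 h libraries in the fit, edgeR called 0 members and 0 of the transcripts at 5 CPM or more, and 36 members had an unadjusted p below 0.05. The cause of these shifts was not tested.

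The member of highest CK level among the 17, at rank 90, had 29.1, 95.0 and 40.7 CPM at 72 h, against 168, 311 and 184 CPM at 48 h. It had 146, 151 and 147 CPM at 24 h and 493, 571 and 341 CPM in CK. The groups at 48 h and 72 h did not overlap. The log2 change of 72 h over 48 h was -2.06 (edgeR adjusted p = 0.0298). The call was lost on leaving out any of the 3 T24 replicates (-2.05 each), T48 replicate 2 (-1.66), T72 replicate 1 (-1.74) or T72 replicate 3 (-1.87).

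Between 48 h and 24 h few members were called, and the direction of the median change depended on the same library. With all libraries 3 members were higher at 48 h and 0 lower (2.48% of members, where 1.97% of all tested transcripts and 2.97% of those at 5 CPM or more were called, with 0.467% and 1.51% called higher). The median log2 change was 0.25, against 0.04 over transcripts at 5 CPM or more, and 43 members were below 0. The members' share called was thus below the 2.97% called in either direction at 5 CPM or more and above the 1.51% called higher. With 3 calls, no difference is read from it. Without T48 replicate 2 the median was -0.24 and 84 members were below 0. In that fit 7 members were called, all lower, with 0 of the 3 among them (5.79%, where 3.08% of transcripts at 5 CPM or more were called and 1.91% called lower). Leaving out any 1 of the T24 replicates gave 0 calls. The count was 1 without CK replicate 2 or 3, and without T48 replicate 1 it was 1, called lower. It was 6 without T48 replicate 3 and 1 without T72 replicate 1. 

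The 3 members called higher at 48 h than at 24 h were also called lower at 72 h than at 48 h. Both comparisons use the same 48 h libraries, so the overlap is not a separate result, and its share over all transcripts is not given. The member at rank 60 had 6.63, 14.3 and 10.3 CPM at 48 h, against 1.35, 1.37 and 1.11 CPM at 24 h. It had 2.31, 1.59 and 0.174 CPM at 72 h and 15.9, 21.9 and 37.3 CPM in CK. Every 48 h library was above every 24 h and 72 h library. The log2 change was 3.08 for 48 h over 24 h (edgeR adjusted p = 0.0423) and -3.00 for 72 h over 48 h (adjusted p = 0.0423). Both calls were lost without CK replicate 2, any 1 of the T24 or T48 replicates or T72 replicate 2, and the second also without T72 replicate 1 (-3.61). Without these libraries the log2 changes lay between 2.72 and 3.33 for the first and between -3.61 and -2.64 for the second.

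The member at rank 53 was also highest at 48 h among the stress times, but lowest at 72 h. It had 63.9, 58.6 and 46.7 CPM at 48 h, against 32.7, 33.2 and 34.8 CPM at 24 h. It had 19.9, 25.1 and 16.2 CPM at 72 h and 141, 127 and 134 CPM in CK. The 4 groups were apart from each other, and T48 replicate 2 was not its highest 48 h library. The log2 change was 0.80 for 48 h over 24 h (edgeR adjusted p = 0.0453) and -1.51 for 72 h over 48 h (adjusted p = 0.00325). The first call was lost on leaving out any 1 of the libraries other than T48 replicate 3 and T72 replicates 2 and 3, with log2 changes of 0.72 to 0.82.

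**Figure D5:**
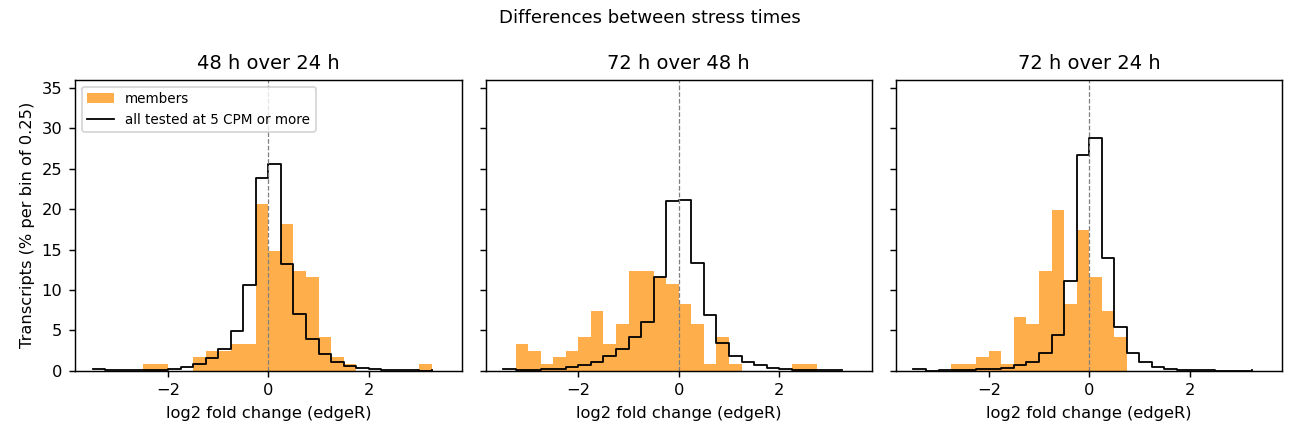
Distribution of log2 fold changes (edgeR) between stress times for the 121 members (bars) and for all tested transcripts at 5 CPM or more (line), in bins of 0.25 with values beyond the axis placed in the end bins. Members lie to the left of the line for 72 h over 48 h (median -0.57) and 72 h over 24 h (median -0.52), and to the right for 48 h over 24 h (median 0.25).

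By group means, the order of the stress times varied among members. In 83 members (68.6%) 72 h was the lowest, against 48.4% of the 597 transcripts with a smaller fall and 33.0% of transcripts at 5 CPM or more. In 56 members the order from low to high was 72 h, 24 h, 48 h, and in 27 it was 72 h, 48 h, 24 h. With T48 replicate 2 left out of the 48 h mean, 72 h was lowest in 61 members, 48 h in 50 and 24 h in 10. The order 72 h, 48 h, 24 h, a fall at each step, then held in 35 members. Within groups, the median coefficient of variation of the members was 23.3%, 8.67%, 49.4% and 29.9% at 0, 24, 48 and 72 h. It was 18.6%, 6.21%, 20.8% and 13.4% over transcripts at 5 CPM or more. Over the 597 transcripts with a smaller fall it was 10.2%, 5.08%, 15.9% and 10.8%. Members thus varied more than both sets in every group. Their spread was larger at 72 h than in CK, the reverse of transcripts at 5 CPM or more.

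For the contrasts with CK, which the rule used, the calls of the same model are a description only. At 24 h 71 members were called, all lower (58.7%, where 4.12% of all tested transcripts and 7.68% at 5 CPM or more were called, with 1.5% and 4.77% called lower). At 48 h 23 were called (19.0%, with a background of 0.691% and 1.81%, or 0.313% and 1.04% called lower). At 72 h 94 were called (77.7%, with a background of 4.74% and 12.9%, or 2.69% and 7.99% called lower). At all 3 times 14 members were called, and 19 were called at none. The rule fixed the direction of these calls and made them likely, so nothing is read from these counts.

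The rule itself asks for high levels in CK. The members' median of the 12-library mean was 28.1 CPM, against 18.9 CPM over transcripts at 5 CPM or more. Members were 50 of 10713 transcripts (0.467%) with a mean of 5 to 20 CPM, 52 of 8000 (0.65%) at 20 to 100 CPM and 19 of 1899 (1.00%) at 100 CPM or more.

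The assembly IDs carry a component label and an end number (1 to 4) that is not explained in the table. End number 4 was on 43 members (35.5%), 3 on 33 (27.3%), 2 on 26 (21.5%) and 1 on 19 (15.7%), against 25.0%, 24.0%, 23.8% and 27.2% of transcripts at 5 CPM or more. The 597 transcripts with a smaller fall had 27.5%, 24.0%, 24.3% and 24.3%. Over the 12 libraries, transcripts at 5 CPM or more that shared both component and end number had a median correlation of 0.32 (857 pairs), and those that shared the component label with another end number 0.01 (5632 pairs). Relatives were therefore sought within an end number.

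The 121 members came from 120 components, 1 of which held 2 members, so nearly all were separate in the assembly. These components held 46 further transcripts, 12 of them at 5 CPM or more. Of the 12, 7 had all 3 stress means below the CK mean (58.3%, against 25.7% of transcripts at 5 CPM or more), and 1 had all stressed libraries below CK. Their median log2((CPM + 1)/(CK CPM + 1)) of group means was -0.71 at 24 h, -0.12 at 48 h and -1.22 at 72 h, against 0.05, 0.03 and 0.08 over transcripts at 5 CPM or more.

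The mirrored rule, with stressed libraries above CK and group means at least doubled, found 162 transcripts. The list of falls grew to 169 with TMM scaling and 188 with median-of-ratios scaling, and all 121 members were in both. Every CK library had a lower TMM factor than every stressed library, so TMM scaling raised CK levels against stressed ones. Members could hardly be lost by it, and their retention is not read as a result.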

How the data were processed

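The deposited table holds estimated counts per assembled transcript (1 of 990048 values above 0 was whole). Per the submitters' processing notes, Trimmomatic was used. The assembler, aligner and counting tool were not given in the sources used here. Estimated counts were rounded (the plan assumed whole counts), filtered with filterByExpr (76273 of 98328 kept), scaled with TMM and fitted by group in edgeR 4.0.16 (R 4.3.3, glmQLFit and glmQLFTest, two-sided, 8 residual degrees of freedom) with Benjamini-Hochberg adjustment. CPM used column totals. Simulated data were used to test the rule and the fit. Alternatives were DESeq2 1.42.0, limma 3.58.1, other scaling factors and filters, a replicate block, fits of fewer groups, and leaving out each library.

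Members, lists and tests were chosen with earlier results of these data known. By rule, the first, middle and last members, the most abundant in CK, and those with the largest called rise and fall between stress times (ranks 60 and 7) were described. Ranks 53, 90 and 116 were chosen after their values were seen. Sequences were not used here.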

Additional observations from a re-analysis of the deposited data

Results flagged for a closer look

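A test of the difference between stress times called some members (edgeR, adjusted p below 0.05). The rule capped the members' stressed levels, so their shares called are not free of it. Between 72 h and 48 h 17 were called, all lower (14.0%, where 7.06% of transcripts at 5 CPM or more were). Without T48 replicate 2 the count was 15, with 9 lower and 6 higher (12.4%, where 5.74% were). With only the 48 h and 72 h libraries in the fit, 0 members and 0 of the transcripts at 5 CPM or more were called. Between 72 h and 24 h 4 were called (3.31%, where 0.976% were). Without T24 replicate 1, 2 or 3 the counts were 1, 1 and 0, where 0.180%, 0.170% and 0.189% were called. Between 48 h and 24 h 3 were called, all higher (2.48%, where 2.97% of transcripts at 5 CPM or more were called and 1.51% called higher). Without T48 replicate 2, 0 of these 3 were called, and 7 other members were called in the opposite direction.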

How the results depend on the processing

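Counts against CK in this section are a description only, because the rule used these contrasts and fixed the direction of the calls. Nothing is read from how these counts move. Shares of all transcripts called are not given in this section for the contrasts with CK or the F test. With DESeq2, 7, 30 and 15 members were called for 48 h over 24 h, 72 h over 48 h and 72 h over 24 h, 30 in the F test, and 112 and 94 against CK at 24 and 48 h. The first 3 were 5.79%, 24.8% and 12.4% of members, where 9.81%, 16.2% and 4.64% of transcripts at 5 CPM or more were called. Of the 7 for 48 h over 24 h, 5 were higher and 2 lower. With limma 8 and 17 members were called for 48 h and 72 h over 24 h (6.61% and 14.0%, where 7.38% and 8.64% were called), and 119 against CK at 24 h. Of these 8, 4 were higher and 4 lower. Fitting only the groups compared gave 0 for 72 h over 48 h, 26 for 72 h over 24 h, and 112 and 0 against CK at 24 and 48 h. With the 24 h libraries averaged the counts were 0, 4 and 0 between times, 3 in the F test and 0, 0 and 46 against CK at 24, 48 and 72 h. With those libraries left out (added after seeing the data) they were 5 for 72 h over 48 h, and 0 and 55 against CK at 48 and 72 h. With no filter, 0 members were called for 48 h over 24 h and 15 against CK at 48 h.

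Replicate numbers did not pair the libraries: correlations of deviations lay between -0.213 and 0.173 over 18 same-numbered pairs, and 2 of 12 libraries correlated best with their own number. With the replicate block, 0 members were called for 48 h over 24 h and 9 against CK at 48 h.

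Leaving out 1 library gave 0 to 7 calls for 48 h over 24 h, 5 to 27 for 72 h over 48 h, 0 to 11 for 72 h over 24 h, 6 to 22 in the F test, and 7 to 103, 3 to 93 and 48 to 109 against CK at 24, 48 and 72 h. The rule gave 100 to 390 transcripts without 1 library, 188 with median-of-ratios scaling, 222 and 71 with mean minimums of 1 and 20 CPM, and 9 with a limit of 25% of CK. The change of 48 h over 24 h turned to -0.16 in the first member and -0.28 in the most abundant one without T48 replicate 2, within ranges of -0.16 to 1.44 and -0.28 to 0.44. In every fit run, members called for 72 h over 24 h were all lower. Unless stated, the cause of these shifts was not tested. Depth set a floor of 0.114 to 0.13 CPM per library, and its part in the calls was not tested.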
